A study of Caenorhabditis elegans with 2 samples.

Results

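zip-2 and cebp-2 are genes for transcription factors of the basic leucine zipper (bZIP) family, and irg-1 and irg-2 are infection response genes. Together with C49G7.10, the neighbour of irg-2, they were examined for binding of another bZIP factor, ZIP-4, in Caenorhabditis elegans larvae. These 5 genes, of 19973 protein-coding genes on the chromosomes covered by the peak lists, were chosen by name with peaks already seen at irg-2, C49G7.10 and zip-2, so which of them were bound is a description and no test was made of it. For each gene, every candidate region was taken whose summit, its point of highest enrichment, lay in the gene or within 2000 bp upstream of one of its annotated transcript starts. The members with an optimal peak, meaning a peak in the authors' final set, were 3 of 5 (zip-2, irg-2 and C49G7.10), and 7.91% of all protein-coding genes had one under the same rule (95% Clopper-Pearson interval 7.54 to 8.29%, for counting over genes only). irg-2 and C49G7.10, which are transcribed away from each other, shared both of their peaks. cebp-2 had a single weak region in 1 replicate, and irg-1 had no region in any list.

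The data came from chromatin immunoprecipitation and sequencing (ChIP-seq) of whole first-stage larvae of strain OP590, 6 hours of age, of mixed sex and starved after bleaching. All worms carried the mutation unc-119(tm4063) and the insertion wgIs590, which holds a zip-4::TY1::EGFP::3xFLAG fusion and unc-119(+) as rescue. There was 1 group with 2 biological replicates, no strain without the tag and no infected or fed worms, and the genotype lists no mutation of zip-4 itself beside the transgene. Whole larvae were used, so a peak cannot be assigned to a tissue. The sample description names an antibody against GFP, whereas the antibody field of the labels gives zip-4. Both replicates and their pooled reads had a list of 30000 candidate regions each, most of them weak, and the optimal set held 1290 regions, equal to the top of the pooled list, down to a signal value of 80.0. Signal values are the authors' own, on a scale that is not stated, and rank 1 is the strongest region of a list. The sources used here give no read depth.

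ZIP-2 is known for switching on a set of genes, with irg-1 as the usual reporter, when worms meet Pseudomonas aeruginosa or when the synthesis of proteins is blocked, in parallel to the PMK-1 p38 kinase pathway. CEBP-2 is a small protein of the C/EBP type, a branch of the bZIP family, and is needed together with ZIP-2 for that induction. bZIP proteins bind DNA as dimers, with the basic region of each partner reading one side of a short, often nearly palindromic word. irg-1 and irg-2 are named for their response to infection, and no role is given here for C49G7.10.

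The stronger peak at zip-2 (WBGene00019327, III:832982-835814, plus strand, ce11) lay inside the gene, in front of its later starts. zip-2 has 3 annotated transcripts with 3 starts and the same coding sequence of 924 bp. The peak covered III:833784-833999, in intron 1 of the longest transcript, with the summit at 833869. This summit stood at 887 bp from the first start, at -219 bp from the next and at -436 bp from the last. It is shown because it is the strongest region at either transcription factor gene. The 101 bases centred on it (plus strand, assembly WBcel235, equal to ce11, from RefSeq) read as follows, with the only match to a degenerate C/EBP word in capitals.
zip-2 summit, III:833819-833919: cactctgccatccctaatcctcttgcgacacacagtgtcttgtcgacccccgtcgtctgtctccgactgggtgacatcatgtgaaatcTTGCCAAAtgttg

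The peak scored a pooled signal value of 410, with 263 in replicate 1 and 155 in replicate 2. It ranked 101, 102 and 95 in these lists, with summits in the replicates 16 bp and 7 bp from the pooled one, so both replicates placed it alike. The pooled q-value, from the deposited −log10 value, was 0.000606. The interval was 216 bp, against a median of 396 bp over the optimal peaks. Those of the peaks next in rank, I:9669163-9669355 and I:9625977-9626174, were shorter still, so this width was not particular to zip-2. The K02F3.15 snoRNA gene, also inside the first intron, ended 260 bp before the summit. Only 7.75% of optimal peaks were stronger. The summit also fell in the upstream window of ceeh-1, an epoxide hydrolase gene on the other strand, at -1592 bp from its start. Summits in the windows of exactly 2 protein-coding genes made up 30.8% of the optimal peaks.

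A weaker optimal peak of zip-2 lay in coding sequence. It covered III:834528-834923 with the summit at 834726, 857 bp from the first one, in exon 4 of the longest transcript and 421 bp downstream of the last start. Its pooled signal value was 83.6 (rank 1202), while replicate 1 gave 44.6 (rank 1814) and replicate 2 gave 41.9 (rank 781). It was thus near the lower end of the optimal set, where 93.1% of the peaks were stronger. Its q-value was 0.0187 in the pooled list and 0.00961 in replicate 2. In replicate 1 it was split over 2 regions, with summits at 834561 (signal value 42.4, q-value 0.12) and 834793 (44.6, q-value 0.0846). Neither was among that replicate's 1290 strongest. In front of the first start there was a region with its summit at -378 bp, which scored 35.8 among pooled regions (rank 12976) and 28.3 in replicate 1 (rank 8016) and no counterpart in replicate 2. A further region of replicate 2 alone had its summit at 835336, in the last exon (signal value 19.7, rank 6451). The strong peak was therefore 4.91 times the second by pooled signal value, and no region of comparable strength stood at the most upstream start.

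**Figure D1:**
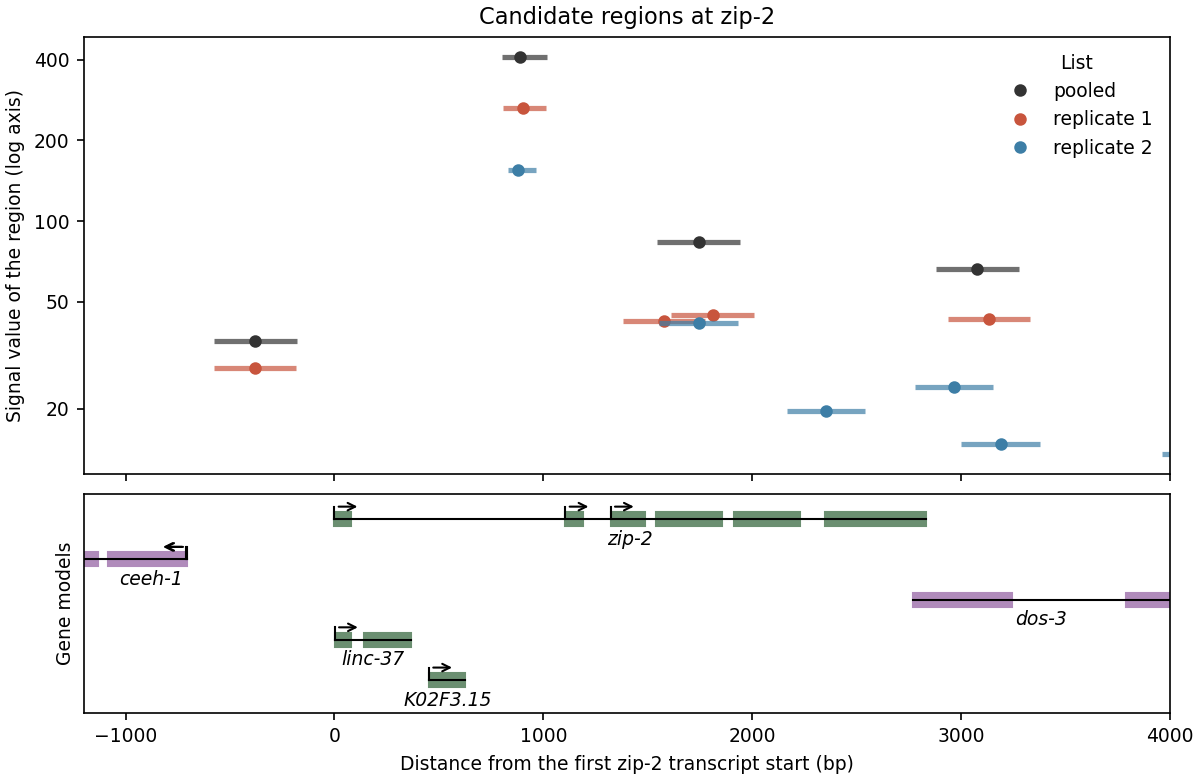
Regions at zip-2 by distance from its first transcript start (x axis, bp) and signal value (y axis, log scale). Bars are intervals and dots summits, in the pooled list and both replicates, above gene models in which boxes are exons of the longest transcript and arrows mark starts (plus strand green, minus strand purple). The regions in the first intron stand at 410, 263 and 155, above every other region drawn.

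cebp-2 (WBGene00016754, chromosome I, 6253082 to 6253584, plus strand) had no optimal peak and no region in the pooled list or in replicate 1. At least 1 pooled region was found at 74.1% of protein-coding genes, and at least 1 region of replicate 1 at 74.5%. cebp-2 is a short gene, and only 5.91% of protein-coding genes have a shorter window under the rule (2503 bp, against a median of 4027 bp). Its single region was in replicate 2, where 74.0% of genes had at least 1. The summit stood at 41 bp from the start, in the first coding exon, with a signal value of 17.2, rank 10360 and a q-value of 0.436. The median signal value of that list of 30000 regions was 15.4. Just outside the window, a region in the body of cof-2, the gene upstream, was repeated in all 3 lists. Its summit stood at -2152 bp in the pooled list (signal value 38.4, rank 10197), at -2190 bp in replicate 1 (25.8, rank 11299) and at -2161 bp in replicate 2 (rank 24549). The neighbour downstream, lpd-2, begins 116 bp after the end of cebp-2, and cof-2 ends 205 bp before its start. A region in lpd-2 scored 38.4 among pooled regions (rank 10179) and 35.2 in replicate 1 (rank 3590). The pooled values of 38.4 were below the lowest optimal signal value of 80.0, which is a pooled value and sets no limit for the replicate lists.

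The strongest binding at any of the 5 genes was in the gap between irg-2 and C49G7.10. irg-2 (WBGene00016783, V:4042181-4043601) is on the plus strand and C49G7.10 (WBGene00016788, V:4040409-4042021) on the minus strand. Their outermost starts face away from each other and leave 159 bp between them. The optimal peak there covered V:4041866-4042282 with its summit at 4042060, at -39 bp from the start of C49G7.10 and at -121 bp from that of irg-2. One region thus lay in the windows of both genes, and it cannot be assigned to either alone. The summit was also in the upstream window of phat-3, the next gene on the plus strand, at -1872 bp. Of all optimal peaks, 8.68% had their summit in the windows of 3 or more protein-coding genes.

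The whole gap is printed because it holds the summit and 1 copy of TTGCGAAA, the C/EBP-type word that was frequent at strong ZIP-4 peaks. It is given on the plus strand, so C49G7.10 begins to the left and irg-2 to the right. The capitals mark that word, which reads TTTCGCAA on this strand, and the word TGACGT of CREB-type sites. The 150 bases before the start of irg-1 (WBGene00015574, V:3523587-3524679, plus strand) are set under it because they hold the same word without any region. There the capitals mark TTGCGAAA, again as TTTCGCAA, and a second degenerate match. Both are from RefSeq, assembly WBcel235.
C49G7.10 to irg-2, V:4042022-4042180: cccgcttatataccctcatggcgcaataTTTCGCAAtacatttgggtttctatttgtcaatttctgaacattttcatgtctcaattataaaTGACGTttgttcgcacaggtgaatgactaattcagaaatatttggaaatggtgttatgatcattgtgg
irg-1 upstream, V:3523437-3523586: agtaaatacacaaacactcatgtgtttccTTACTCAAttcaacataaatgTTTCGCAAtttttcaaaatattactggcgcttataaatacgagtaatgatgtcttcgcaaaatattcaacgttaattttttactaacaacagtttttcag

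The peak between irg-2 and C49G7.10 reached a pooled signal value of 1126, with 745 in replicate 1 and 373 in replicate 2. It ranked 14 in the pooled list and in replicate 1 and 16 in replicate 2, and the summits of the replicates stood 1 bp and 12 bp from the pooled one. Among the 1579 protein-coding genes with an optimal peak, 18 had a stronger one than irg-2 and C49G7.10, and 145 had a stronger one than zip-2. By pooled signal value the peak was 2.75 times the stronger zip-2 peak. Its q-value was 0.000606, as at the stronger zip-2 peak. Much weaker optimal peaks had the same value, such as that of rank 782 (signal value 114), so it does not set strong peaks apart.

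A second optimal peak had its summit 201 bp further towards irg-2, at 4042261. This summit was at 80 bp in irg-2, in the 5′ UTR of its first exon, at -240 bp from C49G7.10 and at -1671 bp from phat-3. Its pooled signal value was 261 (rank 227), against 199 in replicate 1 (rank 175) and 49.7 in replicate 2 (rank 609). Its interval, V:4041866-4042404, begins at the same base as that of the stronger peak and contains all 417 bp of it, so in the pooled list these are not separate stretches of DNA. In replicate 2 the region was reported apart, at V:4042083-4042458. The stronger summit had 4.31 times the signal value of the weaker one. Having 2 or more optimal peaks in the window was shared by zip-2, irg-2 and C49G7.10 and was seen at 0.726% of protein-coding genes, though 1 pair of peaks gave this for both irg-2 and C49G7.10.

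Weak regions around these genes were seen in single replicates. In replicate 2, a region in C49G7.10 had its summit at 171 bp from its second start (signal value 14.6, rank 17469), and a region in intron 2 of irg-2 had its summit at 758 bp (19.3, rank 6853). In replicate 1, a region past the end of irg-2 counted for C49G7.10 at -1826 bp (20.7, rank 22102), the farthest upstream of all regions inside the rule. Just outside it, a replicate 1 region stood at -2013 bp from irg-2 (24.6, rank 13303). No further regions of the pooled list fell in the window of either gene.

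**Figure D2:**
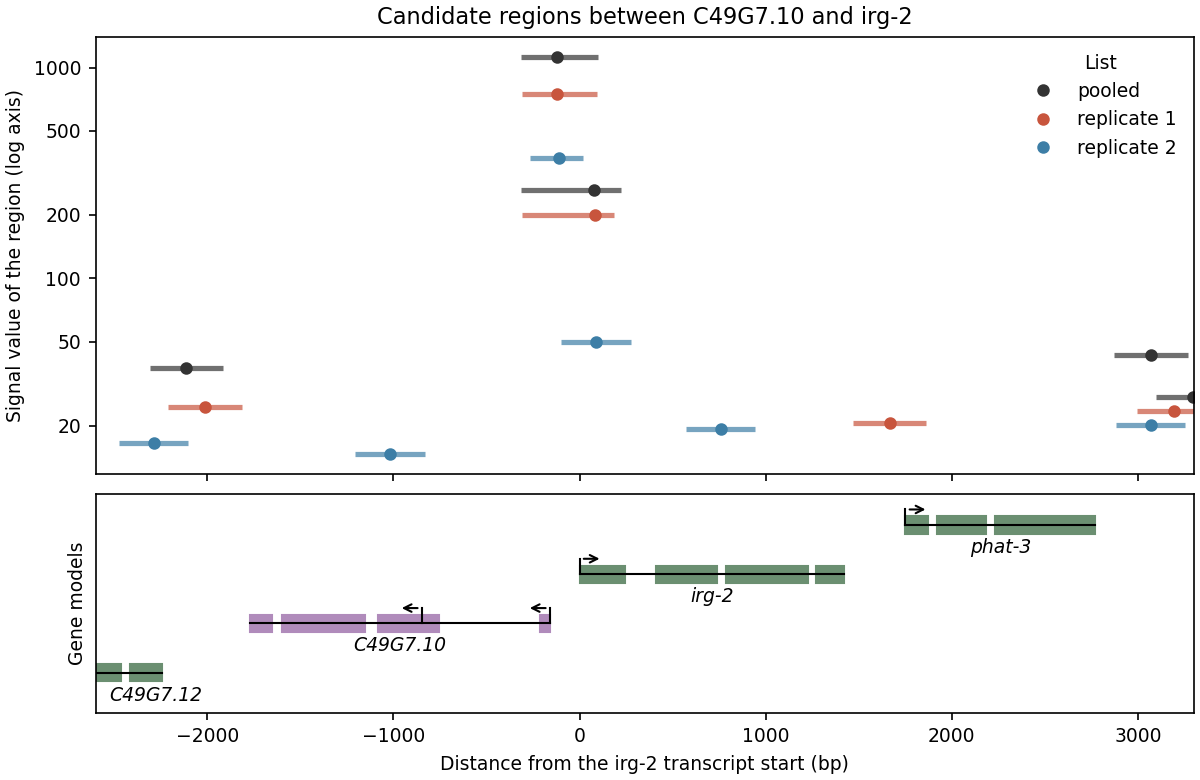
Regions around irg-2 and C49G7.10 by distance from the irg-2 start (x axis, bp) and signal value (y axis, log scale). Bars are intervals and dots summits, in the pooled list and both replicates, above gene models drawn as boxes for exons and arrows for starts (plus strand green, minus strand purple). Regions at -121 bp and 80 bp stand above all others, with pooled signal values of 1126 and 261.

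irg-1 had no region in its window in the optimal set, the pooled list or either replicate, which held for 11.2% of protein-coding genes. Its window of 3093 bp was longer than that of 21.1% of them. The nearest pooled summits stood at -8668 bp (signal value 27.2, rank 28804) and at 1669 bp, past the end of the gene (28.8, rank 24881). In replicate 1 they stood at -26671 bp (31.8, rank 5197) and 1669 bp (21.6, rank 19566), and in replicate 2 at -8735 bp (11.8, rank 29500) and 2499 bp (15.2, rank 15464). The nearest optimal peak was 64253 bp away, at V:3587642-3588037. A list of fixed length omits what ranks below its end, so absence from it gives no level of binding.

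A search for words of the C/EBP type covered both strands and reached 50 bp to either side of each summit. The degenerate forms TTACNNAA and TTGCNNAA, where N is any base, include TTGCGAAA, TTACGAAA and the palindrome TTGCGCAA. Of the 4 optimal peaks of the members, 2 held a degenerate form, as did 26.5% of the 1290 optimal peaks and 16.3% of the 28526 pooled candidates lying apart from all of these. TTGCGAAA itself was in 1 of 4, the strong peak between irg-2 and C49G7.10, against 16.8% of optimal peaks and 1.12% of those background regions. It was centred -6.5 bp from that summit. Among the 100 strongest optimal peaks, 38.0% held it. Within 50 bp, the stronger zip-2 peak held only TTGCCAAA, centred 41.5 bp from its summit. The weaker zip-2 peak and the peak in the 5′ UTR of irg-2 held none within that limit. Their intervals did hold words beyond it. In the peak in the 5′ UTR of irg-2, TTACGAAA was centred 59.5 bp from the summit. A second copy of TTGCGAAA lay in the same interval, more than 100 bp from that summit. At zip-2, TTGCACAA was centred 51.5 bp from the stronger summit and TTGCAGAA -76.5 bp from the weaker one. TGACGT was within 50 bp of no member summit (5.35% of optimal peaks and 3.92% of background regions). The copy in the gap was centred 55.5 bp from the stronger summit.

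The sequence around the 4 summits differed in base composition. G and C made up 52.5% and 44.6% of the 101 bases at the stronger and weaker zip-2 summits. At the summits between C49G7.10 and irg-2 and in irg-2 they made up 32.7% and 24.8%. The median over optimal peaks was 46.5%, with quartiles of 40.6 and 52.5%, so both irg-2 summits were below the lower quartile.

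Near their starts, from 250 bases before to 50 after the first one, irg-1, irg-2 and C49G7.10 each held TTGCGAAA. zip-2 and cebp-2 did not. It was centred at -96.5 bp in irg-1, at -127.5 bp in irg-2 and at -32.5 bp in C49G7.10, the last 2 being the same copy. Of all protein-coding genes, 3.26% (651) held it in this stretch. Of these 651 genes, 24.1% had an optimal peak under the rule, 79.1% had at least 1 pooled region and 9.22% had no region in any list. irg-1 was thus 1 of 60 genes with the word near the start and no region. A match to the letters is a description and not a binding site. The degenerate forms, which 43.2% of genes hold there, were found 2 times each in zip-2 and irg-1, 1 time each in irg-2 and C49G7.10 and not in cebp-2. At zip-2 this stretch surrounds the most upstream start alone and holds neither of its optimal peaks.

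**Figure D3:**
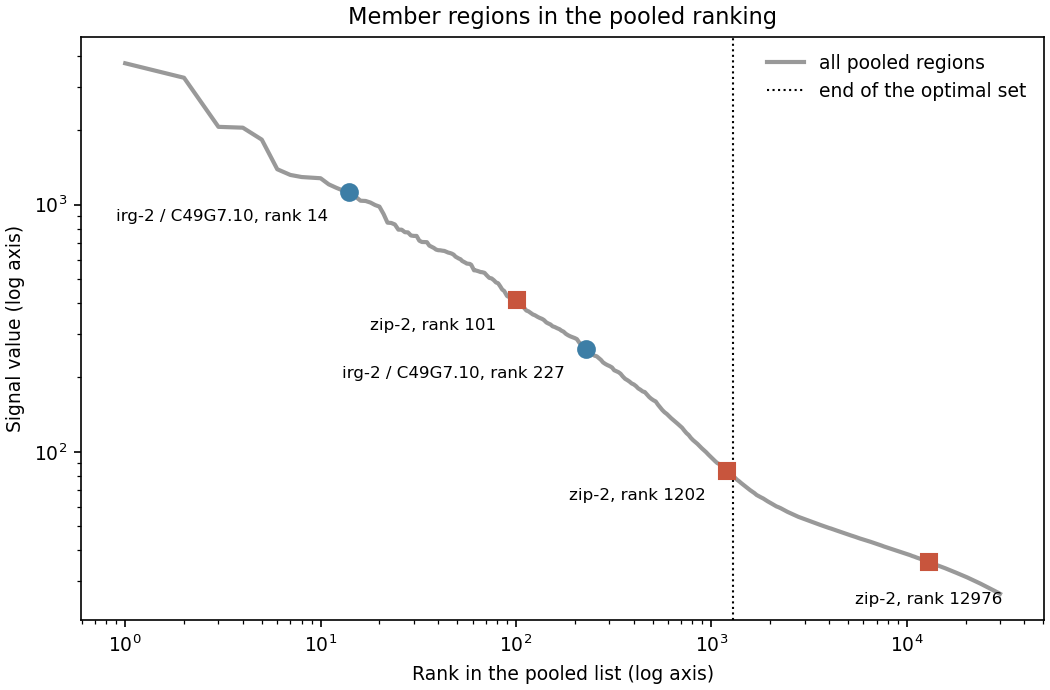
Signal value (y axis, log scale) against rank (x axis, log scale) for the pooled list (grey line), with the pooled regions of zip-2 (red squares) and of irg-2 and C49G7.10 (blue circles). The dotted line ends the optimal set at 1290, and 4 of the 5 member regions lie before it, at ranks 14, 101, 227 and 1202.

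The replicates differed in how strongly they gave the weaker peaks. Of the 1290 optimal peaks, both replicates had a region centred no more than 100 bp away for 1218. Over these, the signal value was 1.89 times higher in replicate 1 at the median (quartiles 1.54 and 2.34), on scales that need not be the same. The ratio was 2.00 for the peak between irg-2 and C49G7.10 and 1.70 for the stronger zip-2 peak, both between these quartiles. For the peak in the 5′ UTR of irg-2 it was 4.01, and 97.4% of peaks had a lower ratio. For the weaker zip-2 peak it was 1.07, and 3.69% had a lower one. Both replicates repeated all 4 peaks under this limit, though the replicate 1 region at the weaker zip-2 peak had a q-value of 0.0846. The optimal set was made from these replicates, so the repeats are not independent of it.

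**Figure D4:**
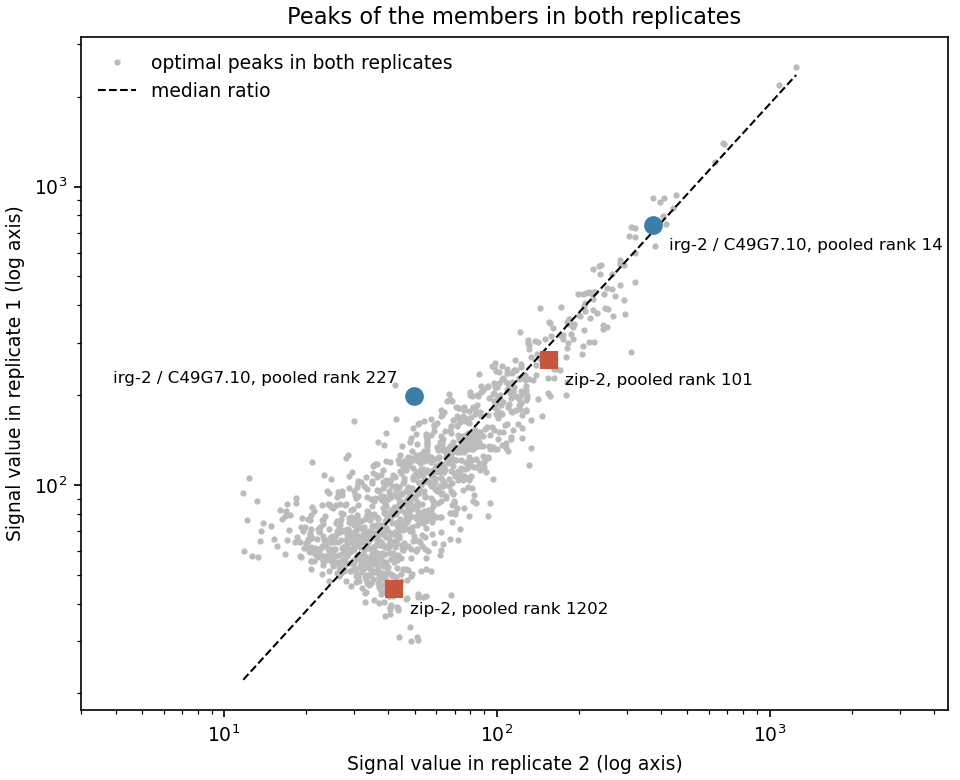
Signal value in replicate 1 (y axis, log scale) against replicate 2 (x axis, log scale) for 1218 optimal peaks (grey), with the peaks of zip-2 (red squares) and of irg-2 and C49G7.10 (blue circles). The dashed line is the median ratio of 1.89, and the peak of pooled rank 227, at 199 and 49.7, lies above it, while that of rank 1202, at 44.6 and 41.9, lies below.

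Peaks next in rank to those of the members were placed by promoter. The optimal peaks directly above and below the stronger zip-2 peak were in the promoters of rpl-24.2 (signal value 412) and of hsr-9 and rps-19 (409). Promoters here ran from 1000 bp before to 200 bp after a start. Around the weaker zip-2 peak, the peak above (83.7) was in no promoter and the one below (83.5) in that of R02F2.9. The peak of rank 14 stood between those of icd-1 and vps-32.1 (1141) and of F13A7.11 and F13A7.12 (1082). The peak of rank 227 stood between those of dnj-19 and nhr-47 (262) and of F01G4.6 and pfd-1 (261). Likeness of pattern was measured as the mean absolute difference of log2 rank of a gene's strongest region over 3 lists (pooled and both replicates), among 11393 genes with a region in each. For zip-2 the nearest genes were ceeh-1 (0.00, the same region) and then hsr-9 and rps-19 (0.04 each, with ranks of 102, 105 and 90). For irg-2 they were C49G7.10 and phat-3 (0.00, the same region), then F13A7.11, F13A7.12 and srd-63 (0.19 each, with ranks of 15, 17 and 14). The ranks of these lists share reads, since the pooled list holds both replicates.

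Other genes named for infection responses had no optimal peak. Of irg-1 to irg-8, 1 of 8 had one (12.5%, exact interval 0.316 to 52.7%), namely irg-2, against 7.91% of all protein-coding genes. irg-2 was a member chosen with its peak already seen, so this share and its interval include a hit known beforehand. Of the 6 outside the members none did. The strongest pooled regions of irg-3, irg-4, irg-5, irg-6, irg-7 and irg-8 had signal values of 40.5, 39.2, 28.8, 46.1, 42.1 and 34.6. Their ranks ran from 5102 at irg-6 to 24862 at irg-5. In replicate 2 the best of them was a region of irg-8 with a signal value of 27.2 (rank 1890), whereas the strongest irg-8 region of replicate 1, at another place, had 21.2 (rank 20709).

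Lists of immune effectors and a list named for the intracellular pathogen response were counted in the same way. None of 15 matched genes that depend on PMK-1 or encode CUB-like proteins had an optimal peak, which allows a share of up to 20%. None of 38 pals genes did (up to 7.89%), a family listed here for the response to intracellular pathogens, whether or not each gene takes part in it. None of 16 lysozyme genes (up to 18.8%) and none of 25 antimicrobial peptide genes (up to 12%) had one. These limits are 3 genes of the total. The exact upper bounds were 21.8, 9.25, 20.6 and 13.7% in the same order, and each lies above the background share of 7.91%. Of 31 saposin-like genes, 1 had one (3.23%, exact interval 0.0816 to 16.7%). This was spp-28, at -1087 bp, with a signal value of 108, and its summit was also in the promoter of dnj-16 and ranked only 10843 in replicate 2.

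Of 19 regulators of immune transcription, 4 had an optimal peak (21.1%), or 3 of 17 without the members zip-2 and cebp-2. The exact interval for the 19, 6.05 to 45.6%, includes the 7.91% of all protein-coding genes. The other 3 were cebp-1, a C/EBP-type factor (signal value 2049, rank 4), skn-1, a factor of the oxidative stress response (266, rank 224), and atfs-1, a factor of the mitochondrial unfolded protein response. The atfs-1 peak stood at -63 bp from the start with a signal value of 128 (rank 689), and its replicate values were 97.1 (rank 577) and 33.3 (rank 1144). TTGCGAAA was within 50 bp of the summit at cebp-1 and skn-1 and not at atfs-1 or either zip-2 peak. No test was made of these lists, which were chosen with earlier results of these data known. The count of 3 of 17 is therefore not free of selection either. zip-2, on this list and among the members, was chosen with its peak already seen.

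**Figure D5:**
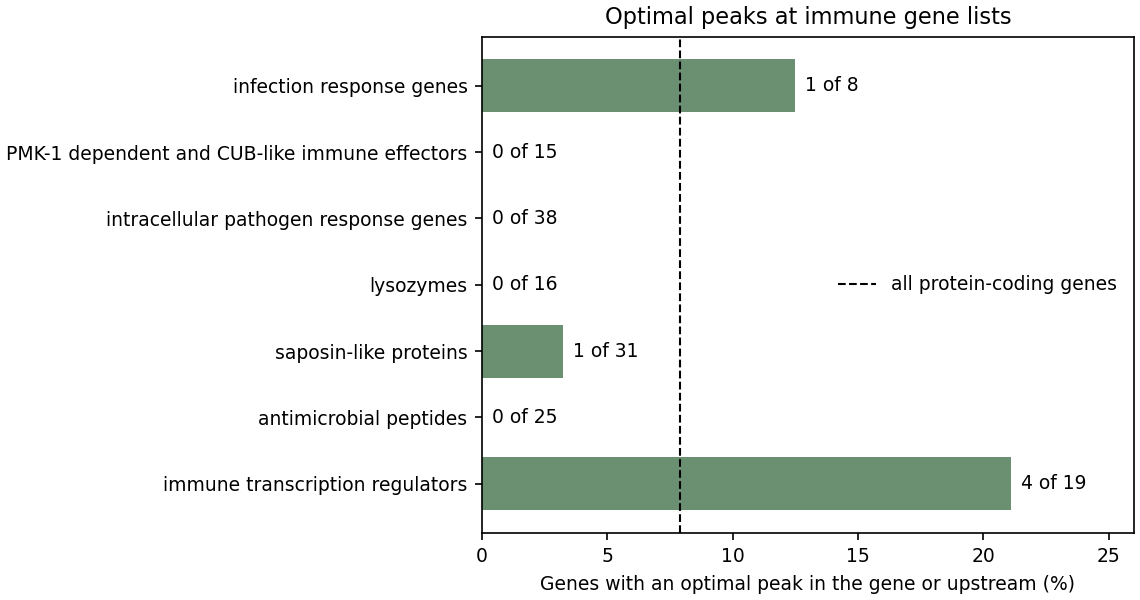
Share of genes with an optimal peak in the gene or within 2000 bp upstream (x axis, %) for each immune gene list (y axis), with counts beside the bars. The dashed line is the 7.91% of all protein-coding genes. The regulators (4 of 19) and the irg genes (1 of 8) reach past it, with exact intervals that include it. Both bars count a member chosen with its peak already seen (zip-2 and irg-2). The lists too were chosen with earlier results of these data known.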

How the data were processed

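ChIP-seq of 2 biological replicates was analysed as narrowPeak lists. Per the accompanying description of the files, the authors made the lists on assembly ce11 from each replicate alignment and a shared control, as input for the irreproducible discovery rate method, and deposited the optimal set kept by it. The deposited signal value of a region has no stated scale, and the sources name no depth, aligner or caller. The authors deposited −log10 q-values, which were converted to q-values. Summits are interval start plus the deposited offset, given 1-based.

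Genes came from Ensembl release 115, assembly WBcel235, and bases from RefSeq of the same assembly, and all summits lay within its chromosome lengths. Regions were placed, ranked and searched for words in Python 3.11.15 with pandas 2.3.3, scipy 1.17.1 and Biopython 1.88. Placing and word search were checked on made-up data. No test was run, since there was 1 group and the members and lists were chosen with earlier results of these data known. Named genes were the members, genes sharing their peaks, their neighbours in rank, the genes most alike in rank, and immune genes with optimal peaks. dos-3, cof-2, lpd-2, the C49G7 neighbours, K02F3.15 and the other irg genes were added after their values were seen. Of the names listed, T24B8.5 and F49F6.12 had no match. Both were on the list of PMK-1 dependent and CUB-like genes and are not among the 15 counted. Alternatives covered window, set, replicate, match distance and word window.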

Additional observations from a re-analysis of the deposited data

How the results depend on the processing

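The members with an optimal peak numbered 3 under the 8 alternatives run for that count. Their optimal peaks numbered 4, or 3 with the upstream part only and with the stronger 645 peaks, and 3 to 4 when 1 replicate was left out and the 1290 strongest regions of the other were used. The weaker zip-2 peak was the one lost with the stronger peaks and without replicate 2, and with the upstream part only zip-2 and irg-2 each kept 1 of 2 peaks. The share of protein-coding genes with a peak, 7.91%, moved to 6.47% with 1000 bp upstream, 5.41% with 500 bp, 7.11% with the upstream part only, 8.57% when any shared base of the interval counted, 4.36% with the stronger 645 peaks and 8.72% with pooled regions of a q-value of 0.05 or less. Without each replicate in turn it was 7.50 to 7.97%. Both replicates repeated 4 of the 4 peaks within 100 bp, as they did 1218 of all 1290 optimal peaks, and 4 within 250 bp. They repeated 3 within 50 bp or among the 1290 strongest regions of each. No share over all optimal peaks is given for limits other than 100 bp. Peaks with a degenerate C/EBP word numbered 2, but 1 within 25 bp of the summit and 4 within 100 bp. That count thus depends on the window, and the share over all optimal peaks is given only for 50 bp. Wider windows hold more bases by construction. No paired analysis was possible because there was only 1 group. Depth is unknown, so no limit on detection can be given for cebp-2 or irg-1.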

Other observations

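The region nearest to zip-2 on its downstream side lay past its end, in dos-3. Its pooled summit was at III:836060, with a pooled signal value of 66.6 (rank 1724), 43.2 in replicate 1 (rank 1954) and 24.0 in replicate 2 (rank 2924). The summit stood at 836117 in replicate 1 and at 835949 in replicate 2, and the replicate 2 summit is farther from the pooled one than the 100 bp allowed for a repeat. The pooled q-value was 0.102.

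Coding sequences of genes near the strong peak were compared. In global alignments of coding bases, C49G7.10 was identical to C49G7.7 at 67.1% of aligned bases, to C49G7.12 at 64.6%, to irg-2 at 59.7% and to C49G7.13 at 56.6%. irg-2 was identical to C49G7.12 at 63.8%, to C49G7.7 at 62.0%, to irg-1 at 60.4% and to C49G7.13 at 57.1%. The alignments were forced end to end and no background from unrelated genes was measured. phat-3 gave 52.0% against irg-2 and 57.3% against C49G7.10. C49G7.7, C49G7.12 and C49G7.13 had 0 optimal peaks each in their windows.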
